A study of Mus musculus with 12 samples.

Results

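The genes described here are the 3 TGF-β ligand genes (*Tgfb1*, *Tgfb2* and *Tgfb3*), the 4 latent TGF-β binding protein genes (*Ltbp1* to *Ltbp4*), *Lrrc32* and *Inhba*, 9 genes of the 52636 in the deposited count matrix. They were picked by symbol, with earlier results of these data known. All 9 were found, and all 9 were among the 22320 genes with enough counts to be tested.

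RNA was sequenced in bulk from aortic smooth muscle cells (SMCs) sorted by flow cytometry, with 12 libraries from 6 C57BL/6J mice at 12 weeks of age. GFPiSMC mice carried *Myh11*-CreERT2, a tamoxifen-inducible Cre driven by a smooth muscle promoter, and the *mT/mG* reporter, which switches recombined cells to GFP. Tgfbr1/2iSMCKO mice carried these same transgenes and in addition floxed alleles of both *Tgfbr1* and *Tgfbr2*, the type I and type II TGF-β receptors, so that receptor deletion and mouse line cannot be told apart. Both genotypes received tamoxifen for 5 days. The labels give each library the same pair of regimens, 1 mg a day at 4 weeks of age or 2 mg a day at 11 weeks, without saying which was used, and the study's methods give the second for adult mice. Each of 3 GFPiSMC and 3 Tgfbr1/2iSMCKO mice gave 1 library from the ascending aorta and arch and 1 from the descending thoracic aorta, made from viable single GFP-positive cells after cold enzymatic digestion. Cells of the *Myh11* lineage that had not recombined, and all other cells of the wall, lay outside the sort.

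TGF-β is secreted as an inactive complex. The mature cytokine stays bound to its own propeptide, the latency-associated peptide, and an LTBP tethers this latent complex to fibrillin and fibronectin in the matrix until integrins, proteases or other activators release it. In the aortic wall SMCs both lay down this store and respond to it through a receptor pair of *Tgfbr2* and *Tgfbr1*, and mutations of ligands, receptors and Smads of the pathway are known from heritable thoracic aortic aneurysm. *Lrrc32* encodes GARP, which holds latent TGF-β at the cell surface. *Inhba* encodes the subunit of activin A, a related ligand that signals through Smad2 and Smad3 with activin receptors.

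The GFPiSMC libraries held 25007747 to 31392396 counts and the Tgfbr1/2iSMCKO libraries 20467027 to 30354994, from 9208 to 20000 sorted cells. Levels are given in CPM, counts per 1000000 of a library's total over the tested genes, with that total multiplied by its TMM normalization factor. Summed levels of 5 smooth muscle markers (*Myh11*, *Acta2*, *Tagln*, *Cnn1*, *Smtn*) were 32636 to 46612 CPM in every library, against 12.6 to 107 CPM for 5 fibroblast markers and 5.08 to 14.0 CPM for 5 leukocyte markers. Endothelial markers summed to 53.3 to 102 CPM, with *Pecam1* at 44.4 to 95.7 CPM, *Vwf* at 1.53 to 12.7, *Cdh5* at up to 2.71, *Kdr* at up to 1.75 and *Tie1* at up to 1.49 CPM. Of these markers, the fibroblast gene *Serpinf1* was lower in Tgfbr1/2iSMCKO libraries (3.34 to 13.5 against 14.1 to 37.9 CPM, adjusted p = 0.00646) and *Cdh5* higher (adjusted p = 0.0250), and their part in the genotype results was not tested. In bulk RNA, fewer cells of a type and less RNA per cell cannot be told apart. The deleted receptors were read at similar levels in both genotypes. *Tgfbr1* had a median of 239.5 CPM in GFPiSMC and 252 CPM in Tgfbr1/2iSMCKO libraries (log2 fold change 0.10, adjusted p = 0.790), and *Tgfbr2* had 106 and 91.5 CPM (log2 fold change -0.26, adjusted p = 0.233). Counts over a whole gene do not show whether the floxed exons are missing, so these values check neither the deletion nor the labels.

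Divided by the summed length of all exons of a gene (its exon union), *Ltbp1* had the highest mean level of the 9 genes and *Tgfb1* the lowest in each of the 4 groups, with *Tgfb1* overlapping *Ltbp2* in the Tgfbr1/2iSMCKO descending aorta. Per coding length, tried after the data were seen, *Tgfb2* came first in the GFPiSMC ascending aorta (227 ± 24.7 CPM per kb against 212 ± 0.979 for *Ltbp1*, SD, n = 3, overlapping), and *Ltbp2* came last in the Tgfbr1/2iSMCKO descending aorta. The levels that follow are per exon union. In GFPiSMC cells of the ascending aorta the *Ltbp1* level was 102 ± 0.471 CPM per kb (SD, n = 3), followed by *Tgfb2* at 52.1 ± 5.66 and *Inhba* at 36.9 ± 2.34 CPM per kb. These neighbours did not overlap between libraries. *Ltbp4* (25.7 ± 20.4 CPM per kb), *Tgfb3* (22.4 ± 2.92) and *Ltbp3* (17.6 ± 2.89) came next and overlapped from one to the next, and *Ltbp4* also overlapped *Inhba*. *Lrrc32* (3.72 ± 1.76 CPM per kb) and *Ltbp2* (3.32 ± 4.03) overlapped each other. In Tgfbr1/2iSMCKO cells of the same segment *Ltbp1* was at 76.6 ± 37.7 CPM per kb, and *Tgfb3* (27.5 ± 9.44), *Ltbp4* (26.9 ± 14.9), *Tgfb2* (26.2 ± 3.05) and *Inhba* (22.1 ± 4.71) stood close together, each overlapping the next. *Ltbp3* was at 5.55 ± 0.912 CPM per kb there, overlapping *Lrrc32* at 4.31 ± 1.57.

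**Figure D1:**
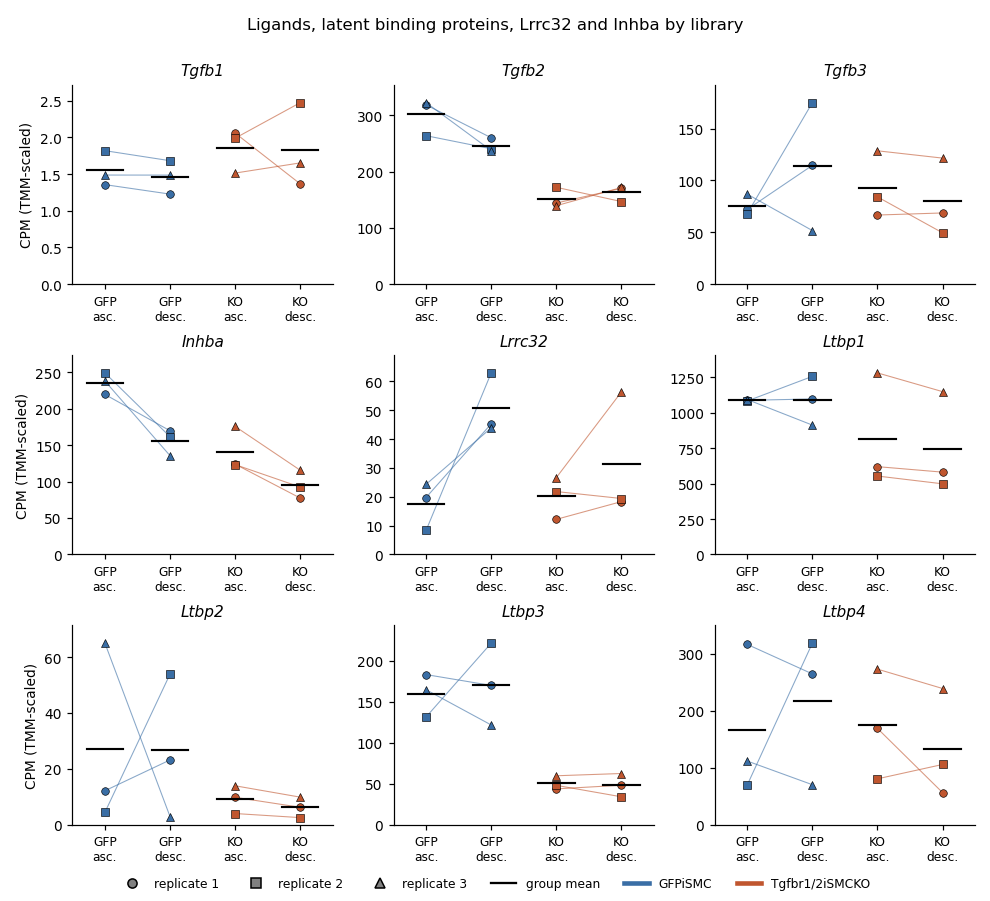
Level of each gene in every library, in CPM scaled by the TMM factors, with GFPiSMC (GFP) and Tgfbr1/2iSMCKO (KO) libraries of the ascending aorta and arch (asc.) and descending aorta (desc.). Symbols mark the replicate, thin lines join the segments of 1 animal and black bars are group means of 3 libraries. The 6 Tgfbr1/2iSMCKO libraries lie below the 6 GFPiSMC libraries for *Tgfb2* (172 CPM at most against 237 at least) and *Ltbp3* (62.3 against 121), and among the Tgfbr1/2iSMCKO mice *Ltbp1* stands highest in replicate 3 (1282 and 1149.7 CPM).

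Comparing genotypes over both segments, 3 of the 9 genes were lower in Tgfbr1/2iSMCKO cells and none was higher at an adjusted p below 0.05: *Ltbp3*, *Tgfb2* and *Inhba*. Of all tested genes, 5.03% were called in this comparison, 3.23% as lower and 1.8% as higher. That is 721 lower of 1123 called, and with scaling by library size alone 505 of 1204, which moved the median over all genes to 0.16 without changing the calls of the 9 genes. Beyond a 2-fold change, 1 of the 9 genes was called, *Ltbp3*, against 1.64% of all genes in the lower direction. The log2 fold change was negative for 8 of the 9 genes, with a median of -0.48, and the median over all tested genes was 0.04. The p-values treat the 12 libraries as separate, although each mouse gave a pair of them. With the counts of both segments summed per animal, *Tgfb2* and *Ltbp3* were still called.

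*Tgfb2*, on average the leading TGF-β ligand transcript of GFPiSMC cells, was at 318, 264 and 322 CPM in replicates 1, 2 and 3 of the GFPiSMC ascending aorta and at 260.0, 240.5 and 237 CPM in their descending aorta. In Tgfbr1/2iSMCKO cells it was at 144, 172 and 139 CPM in the ascending and at 170.2, 147 and 172 CPM in the descending aorta. The GFPiSMC libraries were all above the Tgfbr1/2iSMCKO libraries, with no overlap in either segment, and the spread within a genotype was narrow. The fold change over both segments was a log2 of -0.79 (SE 0.11, adjusted p = 0.000693), or 1.73-fold lower. Under the 17 other settings tried it lay between -0.85 and -0.67, with adjusted p from 6.79e-08 to 0.0166. *Tgfb2* encodes the isoform whose loss in people causes a Loeys-Dietz type of aortic disease.

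*Ltbp3*, which encodes an LTBP that binds the latent form of the ligands and is secreted with them, fell the most of the 3. GFPiSMC libraries held 183, 131 and 164 CPM in the ascending and 169.7, 221 and 121 CPM in the descending aorta. Tgfbr1/2iSMCKO libraries held 43.6, 47.9 and 59.6 CPM in the ascending and 48.0, 33.9 and 62.3 CPM in the descending aorta. Every Tgfbr1/2iSMCKO library was below every GFPiSMC library, in either segment. The log2 fold change was -1.75 (SE 0.18, adjusted p = 6.38e-05), or 3.35-fold lower. Without overlap between the 6 and 6 libraries, *Tgfb2* and *Ltbp3* made 2 of the 9 genes, against 2.89% of all genes in this direction.

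*Inhba* was at 219.7, 249 and 238 CPM in the ascending and at 169.8, 162 and 136 CPM in the descending aorta of GFPiSMC mice. In Tgfbr1/2iSMCKO mice it was at 124, 123 and 176 CPM and at 77.4, 92.5 and 116 CPM. Within each segment the genotypes did not overlap, but over all 12 libraries they did, because the Tgfbr1/2iSMCKO replicate 3 ascending library was above the GFPiSMC descending libraries. The log2 fold change was -0.73 (SE 0.13, adjusted p = 0.00379), or 1.65-fold lower. It was not called with counts summed per animal (-0.71, adjusted p = 0.113) or with segment left out of the model (-0.73, adjusted p = 0.0505), and over all 17 other settings the adjusted p ranged from 0.000174 to 0.113.

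*Tgfb2* (ENSMUSG00000039239.14) lies at chr1:186622792-186705989, *Ltbp3* (ENSMUSG00000024940.10) at chr19:5740904-5758532 and *Inhba* (ENSMUSG00000041324.14) at chr13:16011851-16031621 of GRCm38, and all 3 are protein-coding. The starts of these 3 genes are shown because they were the ones called between genotypes over both segments. RefSeq windows of 250 bases before the transcript start were available for 7 of the 9 genes (10 windows, GRCm38.p6). In the windows printed here, 5′ to 3′ on the strand of the gene, capitals mark matches on either strand to CAGAC, a short sequence that Smad proteins can bind, to TATAAA, the TATA box, and to GGGCGG, the GC box. The *Tgfb2* window is chr1:186705990-186706239 on the minus strand, the *Ltbp3* window chr19:5740650-5740899 on the plus strand and the *Inhba* window chr13:16011601-16011850 on the plus strand.
Tgfb2: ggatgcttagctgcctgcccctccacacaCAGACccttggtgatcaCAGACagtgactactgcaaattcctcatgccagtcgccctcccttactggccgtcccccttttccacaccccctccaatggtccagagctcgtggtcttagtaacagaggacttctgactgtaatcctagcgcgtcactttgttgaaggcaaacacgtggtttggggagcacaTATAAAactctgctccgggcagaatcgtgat
Ltbp3: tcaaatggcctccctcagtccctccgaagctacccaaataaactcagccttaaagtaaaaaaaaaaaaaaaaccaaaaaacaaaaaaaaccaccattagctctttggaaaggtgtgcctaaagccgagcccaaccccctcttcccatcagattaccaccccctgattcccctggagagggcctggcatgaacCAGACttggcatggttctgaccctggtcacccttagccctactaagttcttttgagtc
Inhba: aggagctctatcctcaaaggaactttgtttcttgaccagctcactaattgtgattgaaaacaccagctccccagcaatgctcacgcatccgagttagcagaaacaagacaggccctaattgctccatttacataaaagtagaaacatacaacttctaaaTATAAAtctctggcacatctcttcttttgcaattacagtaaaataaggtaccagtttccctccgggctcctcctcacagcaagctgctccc
The *Tgfb2* window has CAGAC at 221 and 204 bases and TATAAA at 31 bases before the start, counted to the first base of the match. The *Ltbp3* window has 1 CAGAC at 58 bases, and the *Inhba* window has TATAAA at 91 bases before the start and no CAGAC. Of all 32851 such windows, CAGAC was present in 42.2%, TATAAA in 12.4% and GGGCGG in 32.7%. The matches do not overlap each other. None of the 3 windows holds TGANTCA, the AP-1 sequence (6.75% of all windows), or TGACGTCA, the cyclic AMP response element (1.55%), and *Ltbp1* is the only one of the 7 genes with TGACGTCA in a window. CAGAC was also present in the windows of *Ltbp1* and *Ltbp2*, which were not called, and absent from those of *Tgfb1* and *Ltbp4*. A match is a description of the letters and not of binding.

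**Figure D2:**
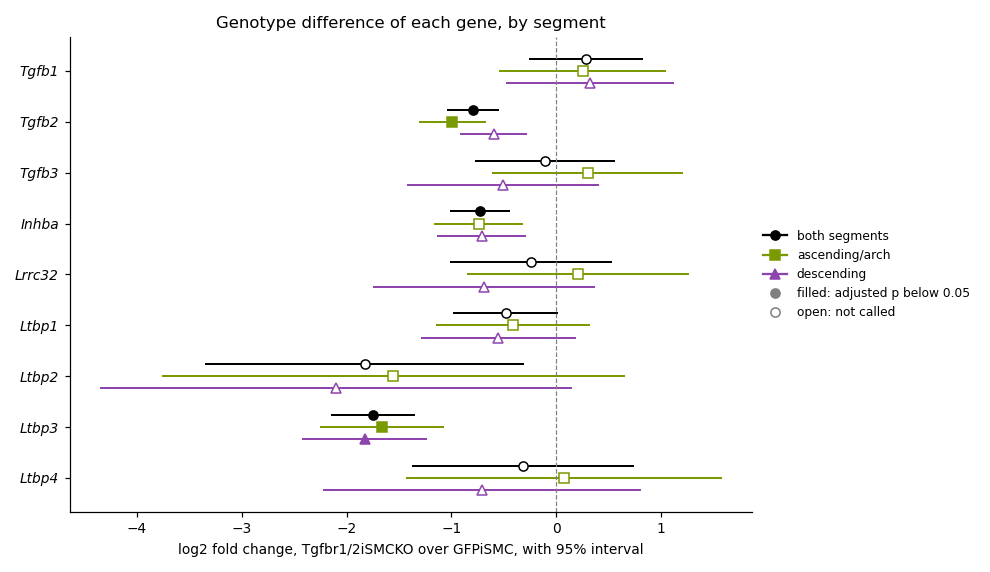
Log2 fold change of Tgfbr1/2iSMCKO over GFPiSMC (horizontal axis) with its 95% interval for each gene, over both segments, in the ascending aorta and arch and in the descending aorta. Filled symbols are called at an adjusted p below 0.05. *Tgfb2*, *Ltbp3* and *Inhba* are filled over both segments, *Tgfb2* and *Ltbp3* in the ascending aorta and *Ltbp3* alone in the descending aorta, and the intervals of *Ltbp2* and *Ltbp4* are the widest.

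The other 6 genes were not called. *Ltbp1* encodes the LTBP best known for storing latent TGF-β on fibrillin fibres. It was at 1088, 1084 and 1094 CPM in the ascending and at 1098, 1258 and 913 CPM in the descending aorta of GFPiSMC mice. The Tgfbr1/2iSMCKO libraries split by animal, with 620.0, 554 and 1282 CPM in the ascending and 581, 499 and 1149.7 CPM in the descending aorta. Replicates 1 and 2 were well below all GFPiSMC libraries in both segments, and replicate 3 was among or above them in both. The log2 fold change was -0.48 (SE 0.23, 95% interval -0.97 to 0.01, adjusted p = 0.325). Without Tgfbr1/2iSMCKO replicate 3, *Ltbp1* was called, at a log2 fold change of -0.96 (adjusted p = 0.000240), and likewise in the ascending (-0.90, adjusted p = 0.0183) and descending aorta (-1.03, adjusted p = 0.00821). Over the other settings and the other animals left out it was not called.

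*Ltbp2* encodes a fibrillin-binding protein that does not bind latent TGF-β. It ranged from 2.89 to 65.0 CPM in the GFPiSMC libraries (median 17.7) and from 2.52 to 13.9 CPM in the Tgfbr1/2iSMCKO libraries. The 2 highest GFPiSMC libraries were replicate 3 of the ascending aorta and replicate 2 of the descending aorta (53.9 CPM), while the other segment of the same mice was at 2.89 and 4.39 CPM. Its log2 fold change of -1.83 was the most negative of the 9 genes, but its 95% interval ran from -3.34 to -0.32 and it was not called (unadjusted p = 0.0213, adjusted p = 0.190).

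*Ltbp4*, which takes part in elastic fibre assembly and binds latent TGF-β1, was at 69.6 to 319 CPM in GFPiSMC (median 188) and 56.2 to 273 CPM in Tgfbr1/2iSMCKO libraries (median 137). The genotypes overlapped over nearly the whole range (log2 fold change -0.32, 95% interval -1.36 to 0.73, adjusted p = 0.854). *Tgfb3*, the other ligand with a clear level in these cells, was at 51.7 to 175 CPM (median 79.4) and 49.5 to 129 CPM (median 76.4), with a log2 fold change of -0.10 (95% interval -0.76 to 0.55, adjusted p = 0.932). *Tgfb3* lies over 5149 bases of *Ttll5* on the opposite strand, whose mean count was 459.8 against 2453 for *Tgfb3*. Whether the counting used strand is not given in the sources used here.

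*Tgfb1*, the ligand isoform most studied in vascular disease, was barely present, at 32 to 60 counts per library. That is 1.23 to 1.82 CPM in GFPiSMC and 1.37 to 2.47 CPM in Tgfbr1/2iSMCKO libraries. The log2 fold change was 0.29 (95% interval -0.25 to 0.82, adjusted p = 0.686). *Tgfb1* is abundant in leukocytes and platelets, whose marker sums here were 5.08 to 14.0 and 2.91 to 7.96 CPM, and the part of such cells in these counts was not tested. *Lrrc32* was at 8.31 to 62.9 CPM in GFPiSMC (median 34.1) and 12.1 to 56.3 CPM in Tgfbr1/2iSMCKO libraries (median 20.6), with a log2 fold change of -0.24 (95% interval -1.01 to 0.52, adjusted p = 0.845). GARP is known from regulatory T cells, platelets and endothelium. T cell markers summed to 1.66 to 6.03 CPM per library and platelet markers to 2.91 to 7.96 CPM. Most of the T cell sum was *Foxp3*, at 1.12 to 4.70 CPM. *Trac* was at up to 1.24, *Cd3e* at up to 0.763, *Cd3g* at up to 0.537 and *Cd4* at up to 0.522 CPM. Endothelial markers summed to 53.3 to 102 CPM, and most of that sum was *Pecam1*, at 44.4 to 95.7 CPM. *Vwf* was at 1.53 to 12.7, *Cdh5* at up to 2.71, *Kdr* at up to 1.75 and *Tie1* at up to 1.49 CPM. The part of such cells in the *Lrrc32* level was not tested.

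In the ascending aorta and arch alone, *Tgfb2* fell by 0.99 on the log2 scale (SE 0.14, adjusted p = 0.00357) and *Ltbp3* by 1.66 (SE 0.27, adjusted p = 0.00746). These were 2 of the 9 genes, against 1.41% of all genes called, 1.01% as lower. Without Tgfbr1/2iSMCKO replicate 1, *Tgfb2* had an adjusted p of 0.0528 and *Ltbp3* of 0.0848, and without GFPiSMC replicate 1 *Ltbp3* had 0.0856, with changes of -0.95, -1.56 and -1.55. For *Inhba* the change was -0.74 (SE 0.19, adjusted p = 0.0897). It was called there by DESeq2 (adjusted p = 0.0466), among genes averaging 50 counts or more (adjusted p = 0.0255) and without Tgfbr1/2iSMCKO replicate 3 (adjusted p = 0.0211).

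In the descending aorta only *Ltbp3* was called among the 9 genes, at -1.83 (SE 0.27, adjusted p = 0.00382), against 1.72% of all genes, 1.21% as lower. The *Tgfb2* change was -0.59 (SE 0.14, adjusted p = 0.0620). The *Inhba* change was -0.71 (SE 0.19, adjusted p = 0.105). *Tgfb2* was called there by DESeq2 (adjusted p = 0.0104) and with counts divided by 2 (adjusted p = 0.0482), and *Inhba* without Tgfbr1/2iSMCKO replicate 3 (adjusted p = 0.0231). In each segment *Tgfb2*, *Ltbp3* and *Inhba* had all 3 Tgfbr1/2iSMCKO libraries below all 3 GFPiSMC libraries, while 10.1% of all genes in the ascending and 7.75% in the descending aorta had such a separation in this direction. With 3 animals a side, an exact permutation test cannot give a two-sided p below 0.1.

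The genotype effect was not found to differ between the segments. In edgeR's test of the difference itself, 0 of the 9 genes and 0% of all genes were called, 0 of the 9 had an unadjusted p below 0.05 against 2.95% of all genes, and DESeq2 called 0 of the 9. The *Tgfb2* decrease was smaller in the descending aorta by 0.40 on the log2 scale, with a 95% interval from -0.04 to 0.83 (adjusted p = 1.00). For *Ltbp3* the difference was -0.16 (95% interval -0.96 to 0.63) and for *Inhba* 0.03 (95% interval -0.55 to 0.61).

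Between the segments of one genotype, 0 of the 9 genes were called by edgeR, against 0.376% of all genes in GFPiSMC and 0.112% in Tgfbr1/2iSMCKO cells. DESeq2 called 0 of the 9 in either genotype, and unadjusted p was below 0.05 for 2 genes in GFPiSMC, against 5.98% of all genes, and for 1 in Tgfbr1/2iSMCKO cells, against 3.68%. *Inhba* was lower in the descending than in the ascending aorta of all 6 mice, by 0.37 to 0.81 on the log2 scale. The difference was -0.60 in GFPiSMC (SE 0.19, unadjusted p = 0.00807, adjusted p = 0.487) and -0.57 in Tgfbr1/2iSMCKO cells (SE 0.19, unadjusted p = 0.0110, adjusted p = 0.847), with no overlap of the segments in either genotype, a separation that 7.8% of all genes showed in GFPiSMC and 4.08% in Tgfbr1/2iSMCKO libraries in the same direction. *Inhba* thus had its highest levels in the GFPiSMC ascending aorta and its lowest in the Tgfbr1/2iSMCKO descending aorta, at 236 ± 14.9 and 95.1 ± 19.3 CPM (SD, n = 3). *Tgfb2* was also lower in the descending aorta of all 3 GFPiSMC mice, without overlap (-0.29, SE 0.14, unadjusted p = 0.0599, adjusted p = 0.860). In Tgfbr1/2iSMCKO mice the segments overlapped for *Tgfb2* (0.10, SE 0.14).

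*Lrrc32* went the other way in GFPiSMC mice. It was at 19.7, 8.31 and 24.3 CPM in the ascending and at 45.3, 62.9 and 43.9 CPM in the descending aorta, higher in the latter in all 3 mice and without overlap (log2 difference 1.54, SE 0.49, unadjusted p = 0.00853, adjusted p = 0.504). By mouse the log2 difference was 1.20, 2.91 and 0.85 in replicates 1, 2 and 3. Leaving out single animals, the estimate ranged from 1.02 to 1.95. In Tgfbr1/2iSMCKO mice *Lrrc32* was at 12.1, 21.8 and 26.6 CPM and at 18.3, 19.4 and 56.3 CPM, where the segments overlapped (0.64, SE 0.48, adjusted p = 1.00). Libraries of GFPiSMC mice separated the segments in this direction for 5.19% of all genes. Summed fibroblast markers also moved with the segment, at 73.9 to 87.2 CPM in the ascending and 38.9 to 49.3 CPM in the descending aorta of GFPiSMC mice and at 45.4 to 107 and 12.6 to 31.4 CPM in Tgfbr1/2iSMCKO mice. The sum followed *Lum*, at 39.3 to 56.6 CPM in the ascending and 2.34 to 3.79 CPM in the descending aorta of GFPiSMC mice and at 19.6 to 69.8 and 0.944 to 3.93 CPM in Tgfbr1/2iSMCKO mice. *Serpinf1* of the same list went the other way in GFPiSMC mice without overlap, at 14.1 to 16.2 CPM in the ascending and 25.7 to 37.9 CPM in the descending aorta (log2 difference 1.13, adjusted p = 0.667). Of the other 3 markers, *Pdgfra* was at 7.08 to 21.7, *Dpt* at up to 4.46 and *Pi16* at up to 2.52 CPM over the 12 libraries, and *Lum* and *Serpinf1* thus differed in direction. The part of these cells in the segment differences of *Inhba* and *Lrrc32* was not tested.

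**Figure D3:**
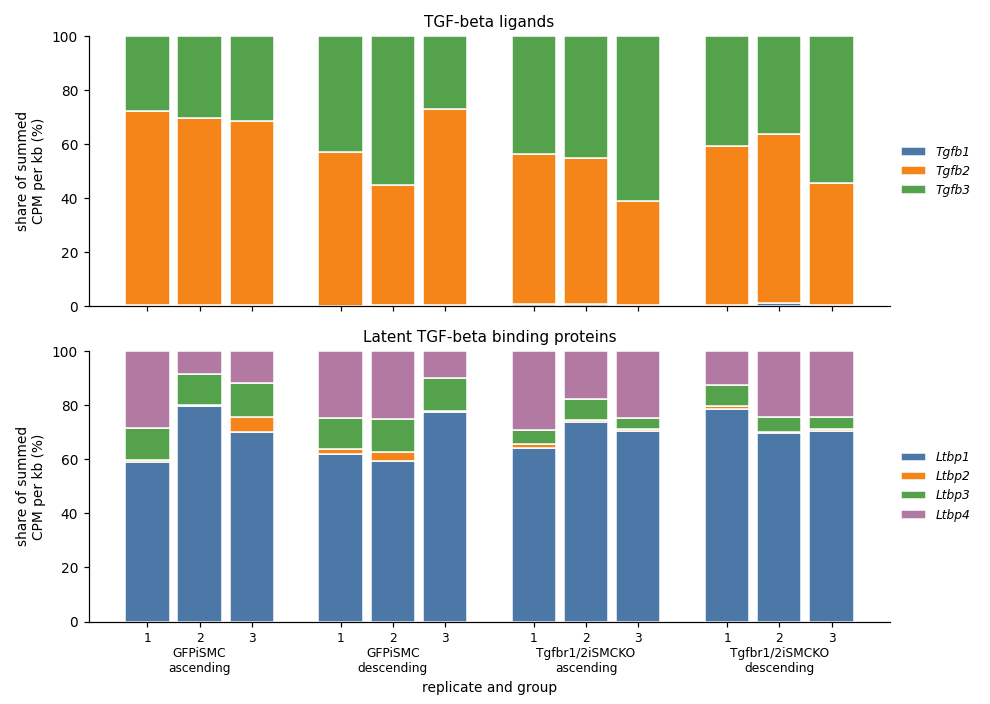
Share of each gene in the summed CPM per kb of the 3 ligand transcripts (top) and of the 4 LTBP transcripts (bottom), with 1 bar for each library. *Tgfb2* makes up 68.2 to 71.8% of ligand transcripts in the 3 GFPiSMC ascending libraries and 38.6 to 55.3% in the 3 Tgfbr1/2iSMCKO ascending libraries, and the *Ltbp3* share is smaller in every Tgfbr1/2iSMCKO bar.

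Expressed as a share of all ligand transcripts per length, *Tgfb2* made up 69.7 ± 1.90% (SD, n = 3) in the GFPiSMC ascending aorta and 49.3 ± 9.31% in the Tgfbr1/2iSMCKO ascending aorta. The 2 groups did not overlap. In the descending aorta the share was 57.9 ± 14.1% and 55.5 ± 9.28%, with full overlap. *Tgfb3* supplied nearly all of the rest, and *Tgfb1* at most 1.21% in any library. Among the LTBP transcripts, *Ltbp3* made up 11.8 ± 0.548% and 11.9 ± 0.539% in the GFPiSMC segments, the steadiest share of the family, and 5.58 ± 1.86% and 5.92 ± 1.61% in the Tgfbr1/2iSMCKO segments, with no overlap between the genotypes. *Ltbp1* held 66.4 to 72.9% on average in all 4 groups. The summed LTBP level was 1.79 to 2.05 times the summed ligand level on average, with SDs from 0.0913 to 0.730, and the groups overlapped. Per coding length the mean ratio was 0.949 to 1.09, and per longest transcript 2.51 to 2.87. The shares depend on the length used. Over the longest transcript or the coding sequence in place of all exons, the *Tgfb2* share in the GFPiSMC ascending aorta was 72.0 or 78.4%.

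Libraries also differed in how GC-rich and GC-poor transcripts were read, which touches several of these genes. The median deviation of the 10% most GC-rich genes minus that of the 10% most GC-poor ranged on the log2 scale from -0.59 in Tgfbr1/2iSMCKO replicate 2 descending to 0.55 in Tgfbr1/2iSMCKO replicate 3 ascending. It was 0.48 in the descending libraries of both Tgfbr1/2iSMCKO replicate 3 and GFPiSMC replicate 2, and -0.41 in GFPiSMC replicate 2 ascending. *Ltbp4*, *Ltbp2*, *Lrrc32* and *Ltbp3* were at percentiles 99.0, 93.2, 92.9 and 92.7 of transcript GC content, *Tgfb2* at 38.1 and *Inhba* at 12.0. After a correction for GC content, added after the data were seen, the same 3 genes were called between genotypes. The ratio of the highest to the lowest *Ltbp3* library fell from 1.82 to 1.29 within GFPiSMC and from 1.84 to 1.13 within Tgfbr1/2iSMCKO, and its log2 fold change was -1.78 (adjusted p = 9.08e-08). The same ratio for *Ltbp4* was still 4.02 and 3.88, and for *Ltbp2* 21.4 and 3.23. For *Ltbp1* in Tgfbr1/2iSMCKO it fell from 2.57 to 1.85, with a log2 fold change between genotypes of -0.57 (adjusted p = 0.0506).

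**Figure D4:**
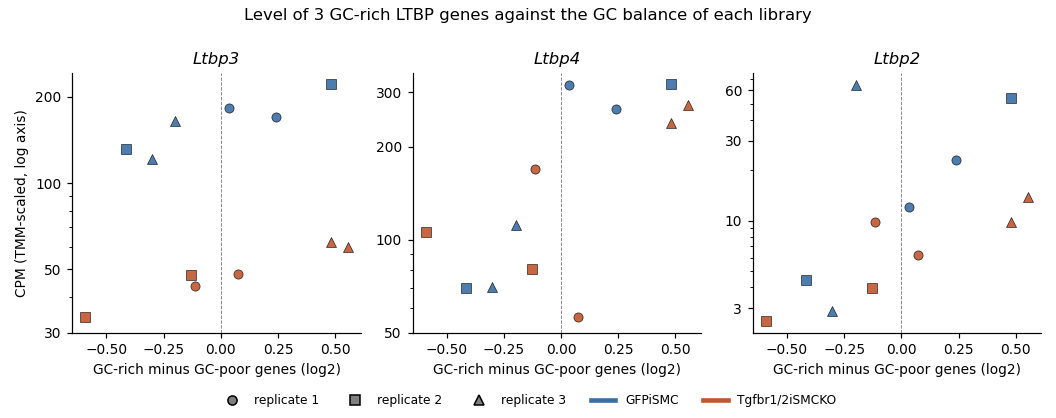
Level of *Ltbp3*, *Ltbp4* and *Ltbp2* (CPM, log axis) in each library against the GC balance of that library, the median log2 deviation of the most GC-rich minus that of the most GC-poor genes. Colours mark the genotype and symbols the replicate. Within each genotype *Ltbp3* is lowest or close to lowest in the libraries with the lowest GC balance (down to -0.59), and the genotypes stay apart at every balance.

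Genes around the latent complex were also called between genotypes over both segments, 12 of them lower and 1 higher in the 4 lists described here. Over all tested genes, 3.23% were called lower, 1.8% higher, and 2.89% were lower with no overlap of the 6 and 6 libraries. Of 19 tested genes for processing and activating latent TGF-β, 4 fell and 0 rose, with a list median log2 fold change of -0.38. *Pcsk5*, which encodes a furin-like proprotein convertase, fell by 2.65 (SE 0.23, adjusted p = 9.51e-06), from 40.9 to 97.9 CPM in GFPiSMC to 6.68 to 15.2 CPM in Tgfbr1/2iSMCKO libraries. The integrin β subunits *Itgb1* (-0.48, adjusted p = 0.00150), *Itgb3* (-0.88, adjusted p = 0.00684) and *Itgb5* (-1.07, adjusted p = 0.00609) fell as well, and the 6 and 6 libraries did not overlap for any of these 4 genes. *Itgb8*, which pairs with αv to release TGF-β, was not called over both segments (-0.76, adjusted p = 0.222). It was 2.84-fold lower in the ascending aorta (adjusted p = 0.0379), where the genotypes did not overlap, and its log2 fold change in the descending aorta was 0.00653 (difference between segments 1.51, unadjusted p = 0.00500, adjusted p = 1.00). For *Thbs1*, which encodes the activator thrombospondin-1, the value over both segments was -0.16 (adjusted p = 0.934), with 0.88 in the ascending (adjusted p = 0.570) and -1.20 in the descending aorta (adjusted p = 0.395). The difference between segments was -2.08 for *Thbs1* (unadjusted p = 0.0124, adjusted p = 1.00). In the single segments, 2 genes of this list fell in the ascending and 3 in the descending aorta, and 0 rose in either. Of all genes, 1.41% were called in the ascending aorta, 1.01% as lower, and 1.72% in the descending aorta, 1.21% as lower.

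Of 14 matrix partners of the latent complex, 5 fell and 0 rose, with a median of -0.24. *Fbn1*, the fibrillin that LTBPs bind, fell by 0.54 (SE 0.12, adjusted p = 0.0179), with a median of 300.3 CPM in GFPiSMC and 191 CPM in Tgfbr1/2iSMCKO libraries that overlapped. *Fn1*, fibronectin, fell by 1.70 (SE 0.36, adjusted p = 0.0137), with medians of 1136 and 350.3 CPM and overlap. *Fbln5* of the elastic fibre (-2.51, adjusted p = 3.40e-06), the proteoglycan *Bgn* (-1.81, adjusted p = 5.52e-08) and *Aspn*, a small proteoglycan known to bind TGF-β (-4.08, adjusted p = 3.35e-05), did not overlap between genotypes. Of 12 genes for activin-like ligands and their binding proteins, 3 fell and 0 rose, with a median of -0.25. The 3 were *Fst* (-1.61, adjusted p = 0.0178), *Fstl1* (-1.19, adjusted p = 6.98e-07) and *Fstl3* (-1.47, adjusted p = 0.00185), and *Fst* and *Fstl3* encode secreted proteins that bind activin. *Fst* was low throughout, at 3.87 to 7.04 CPM in GFPiSMC and 0.337 to 3.05 CPM in Tgfbr1/2iSMCKO libraries, while *Fstl3* was at 105 to 232 and 33.0 to 71.4 CPM. Of 16 receptors and Smads, 0 fell and 1 rose, *Tgfbr3* (0.52, SE 0.12, adjusted p = 0.0226), which encodes the co-receptor betaglycan that presents TGF-β2, with a median of -0.18 for the list. The medians stand beside 0.04 over all genes.

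The non-member genes whose log2 CPM followed a called gene most closely over the 12 libraries were taken from 10381 protein-coding genes averaging 100 counts or more. For *Tgfb2* they were *Tmed3* (Pearson's r = 0.967), *Mnd1* (0.943) and *Sdf2* (0.939). For *Ltbp3* they were *Prss57* (0.987), *Sulf1* (0.986) and *Ndst1* (0.982), and *Sulf1* and *Ndst1* encode enzymes that modify heparan sulfate. For *Inhba* they were *F2r* (0.969), the thrombin receptor, *Ace* (0.949), angiotensin-converting enzyme, and *Cped1* (0.935). Of these 9, *Tmed3*, *Sdf2*, *Prss57*, *Sulf1*, *Ndst1*, *F2r* and *Ace* were also called lower between genotypes, against 3.23% of all tested genes. The 9 were picked for following a gene called lower over the same libraries, so these calls are no separate result. The points share the genotype split, library depth and GC balance, so the coefficients describe these 12 libraries only.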

How the data were processed

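The authors trimmed the reads, aligned them with HISAT2 to GRCm38 (mm10), assembled expression with StringTie against GENCODE annotation and compared groups with DESeq2. The deposited matrix holds counts per gene, whole numbers with no normalization. How StringTie's coverage became counts is not given in the sources used here. Groups and animals were read from the sample labels, where 1 number was taken to mark both segments of 1 mouse. Genes passing filterByExpr (22320 of 52636) were scaled by TMM and tested with edgeR 4.0.16 (R 4.3.3) by quasi-likelihood, with segment and genotype in the model over both segments and 4 group means otherwise, on all 12 libraries. A gene was called at a Benjamini-Hochberg adjusted p below 0.05 over all tested genes. The same script was tested on simulated data. Intervals are 95% intervals, and CPM per kb divides by the union of exons (GENCODE M21). Alternatives were DESeq2 1.42.0, limma 3.58.1 (voom), other normalizations, filters and blocks, animals left out, and a GC correction (lowess) added after the data were seen. The correlation of deviations between the segments of 1 animal over 9210 genes was 0.19, -0.24 and 0.02 in GFPiSMC and 0.06, 0.38 and 0.66 in Tgfbr1/2iSMCKO mice. Members and lists were chosen with earlier results of these data known. Named genes are the 9 members, the deleted receptors, other list genes called over both segments, and the 3 protein-coding genes most correlated with each called member. *Itgb8*, *Thbs1* and the markers named for cell types were chosen besides these, *Itgb8* and *Thbs1* after their values were seen. An item withheld from the text is not reported here.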

Additional observations from a re-analysis of the deposited data

How the results depend on the processing

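Over both segments, *Tgfb2* and *Ltbp3* were called under all 17 alternatives and *Inhba* under 15 of them. Without Tgfbr1/2iSMCKO replicate 3, *Ltbp1* was called as well. The count of the 9 genes called ranged from 0 to 4 in the ascending aorta when single animals were left out (0 without Tgfbr1/2iSMCKO replicate 1, 1 without GFPiSMC replicate 1 and 4 without Tgfbr1/2iSMCKO replicate 3), and from 1 to 3 in the descending aorta (3 without Tgfbr1/2iSMCKO replicate 3). It was 2 in the descending aorta under DESeq2 and with counts divided by 2. The cause was not tested. Of all genes, DESeq2 called 1917 between genotypes over both segments, 842 in the ascending and 865 in the descending aorta, against 1123, 315 and 385 in edgeR, and between segments 275 in GFPiSMC and 165 in Tgfbr1/2iSMCKO, against 84 and 25. It called 11 for the difference between segments, against 0, while edgeR called 1 with no filter and 3 without GFPiSMC replicate 3. Counts summed per animal gave 451. Fits on the libraries compared alone gave 150 in the descending aorta and 4 between segments in Tgfbr1/2iSMCKO, where no filter gave 47. Leaving out animals gave 622 to 1066, 128 to 240, 136 to 330, 6 to 86 and 5 to 19 in the order of comparisons above. Scaling by library size alone moved the median over all genes from 0.04 to 0.16 and the genes called lower from 721 of 1123 to 505 of 1204 (225 of 315 to 190 of 334 in the ascending and 269 of 385 to 205 of 383 in the descending aorta).

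No call of the 9 genes changed with the replicate number as a block between genotypes, or with the animal as a replicate block between segments. With the animal block, 74 genes were called between segments in GFPiSMC, against 84, and 17 in Tgfbr1/2iSMCKO, against 25. The number pairs no animals between genotypes.

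The sign turned only for values that were not called. With library size alone the *Tgfb3* change over both segments was 0.0241, and with the GC correction the *Ltbp4* change in the ascending aorta was -0.11. The difference between segments became 0.15 for *Ltbp3* and -0.0380 for *Inhba* with the GC correction, and 0.15 and -0.0228 with the GC correction and the animal block. Leaving out single animals, the change over both segments ranged from -0.47 to 0.0865 for *Tgfb3*, from -0.91 to 0.16 for *Ltbp4* and from -0.72 to 0.0415 for *Lrrc32*. In the ascending aorta it ranged from -0.0126 to 0.50 for *Tgfb3*, from -2.06 to 0.17 for *Ltbp2*, from -0.41 to 0.96 for *Ltbp4* and from -0.12 to 0.53 for *Lrrc32*. The difference between segments ranged from -0.39 to 0.19 for *Ltbp3* and from -0.0755 to 0.14 for *Inhba*. Of the differences of single genes not followed through the settings above, 285 values kept their sign and call and 26 turned sign. Among the latter was the *Tgfb2* difference between segments in Tgfbr1/2iSMCKO. It was -0.00170 without Tgfbr1/2iSMCKO replicate 3, against 0.10 with all animals. The *Tgfb2* share in the GFPiSMC ascending aorta was 78.4% per coding length and 72.0% per longest transcript, against 69.7%. At 32 to 60 counts per library, depth limits what can be said of *Tgfb1*.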
